A study of Danio rerio with 6 samples.

Results

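The phototransduction and photoreceptor genes of the zebrafish (Danio rerio) retina were followed in whole embryos given a morpholino against the splicing of glut12. The genes were taken from a list of 54 symbols of rod, cone and visual cycle genes, matched to the gene symbols of the deposited files, and 51 of the 54 were found among 31452 genes. The symbols pde6ga, pde6gb and arr3b were not matched and are not analysed here. Embryos of the control group received a control morpholino, and those of the other group (morphants) received the morpholino that the labels call glut12 splice MO. A morpholino is an antisense oligomer injected into the embryo, so any block is transient and the embryos carry no mutation. All were collected as whole embryos at 4 days post fertilization, and each of the 6 libraries, 3 per group, holds total RNA from a pool of 10 embryos. Neither the strain nor the morpholino dose is stated in the labels. Nothing in the labels ties a pool to a clutch, so the p-values reflect only how far these pools differed, and that spread may be technical.

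Rods and cones detect light with opsins, receptor proteins that carry a vitamin A derivative. A lit opsin activates the G protein transducin, transducin activates the phosphodiesterase PDE6, and PDE6 lowers cyclic GMP, which closes cation channels of the outer segment. Opsin kinases, arrestins, RGS9 and the guanylate cyclase activating proteins end the response and restore the dark state. The visual cycle, which runs largely in the retinal pigment epithelium and in glia, returns the spent retinoid to the opsins. Zebrafish larvae see mainly with cones at this stage, and the cones come in ultraviolet, blue, green and red types.

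The deposited values are read here as normalised read counts, divided by the authors by a size factor for each library and rounded, a unit inferred from the values and stated in no label. Their totals lay between 10397713 (morphant 2) and 11762915 (control 1). Depths estimated from the spacing of low values ran from 7550000 reads in control 1 to 15170000 in morphant 1, so low genes were measured least precisely in control 1. The targeted gene, listed as slc2a12 (chromosome 23, Zv9), was at 160, 145 and 143 in controls and at 98, 97 and 90 in morphants (log2 difference -0.65 ± 0.13 SE, limma adjusted p = 0.158). A splice block need not lower the read count, and splicing itself was not measured here. Genes that define tissues of a whole larva were present in every library: acta1b of skeletal muscle at 16757 to 29612, myl7 of the heart at 195 to 358, ins of the islet at 127 to 198 and cryaa of the lens at 272 to 533. Opsins of rods and of each cone type were present as well, as given below.

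In the comparison of morphants with controls, 0 of 50 photoreceptor genes tested were lower and 0 were higher at an adjusted p of 0.05 (limma with Benjamini-Hochberg adjustment over 26082 genes). Over all genes tested the shares called at that threshold were 0% lower and 0.023% higher. At an unadjusted p of 0.05, 13 of the 50 were lower and 1 was higher, where the shares over all genes were 6.93% lower and 8.99% higher. When library totals were made equal, a scaling that shifts the median gene by 0.11, 5 were lower and 2 were higher, where 775 and 3780 of all genes tested were. The 13 were rho, gngt1, opn1mw3, opn1lw1, opn1lw2, gngt2b, gnb3b, arr3a, guca1g, rcvrna, crx, rom1b and rgs9a, and the higher gene was cngb1a. The log2 difference was negative for 37 of the 50, with a median of -0.25, against 50.1% and a median of 0.00 over all genes tested. All 3 morphants lay below all 3 controls for 13 of the 50 (10.2% of all genes tested) and above them for 1 (11.6%). Among the genes with a mean of at least 100, 11 of 38 were lower at an unadjusted limma p of 0.05, against 10.2% of 12680 genes at that level. For 10 of the 38 all 3 morphants lay below all 3 controls, against 15.1%. In bulk RNA, fewer photoreceptors and less RNA per photoreceptor cannot be told apart.

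These group differences were carried unequally by the 3 morphant pools. The median photoreceptor gene stood 0.69 below the control mean on the log2 scale in morphant 1, but 0.060 and 0.072 below it in morphants 2 and 3. Control 1 was 0.12 above the control mean, and controls 2 and 3 were 0.053 and 0.046 below it. The summed normalised read count of the 51 genes was 147688, 125481 and 125033 in controls 1, 2 and 3, and 74825, 115004 and 117470 in morphants 1, 2 and 3. Morphant 1 was the lowest of the 6 libraries for 39 of the 50 genes, where it was the lowest for 15.1% of all genes tested. It was the highest for 4, rpe65a, rlbp1b, nr2e3 and gngt2a (13.9% of all genes tested). Among the genes with a mean of at least 100 it was the lowest for 31 of 38, against 18.9% of 12680 genes at that level. It lay at least 0.5 (log2) below the mean of morphants 2 and 3 for 31 of the 50, against 12.3% of all genes tested, and at least 0.5 above it for 2, rpe65a and rlbp1b (8.97%). Among the genes with a mean of at least 100 it lay that far below for 24 of 38, against 4.4%. These thresholds were chosen after the values were seen.

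Without morphant 1 the median difference of the 50 genes was -0.070 and 29 were negative, against 49.7% of all genes tested. Then 10 were lower and 1 was higher at an unadjusted limma p of 0.05, where the shares over all genes were 6.45% and 7.42%, and 0 passed adjustment in either direction, where 0.00383% of all genes were lower and 0.00767% higher. Of the 10, 9 were among the 13 named above (opn1mw3, opn1lw2, gngt2b, gnb3b, arr3a, guca1g, crx, rom1b and rgs9a), and the other was rpe65a. Without control 1 the count was 6 lower and 1 higher (5.13% and 7.92% of all genes) and the median -0.22, with 0 past adjustment (0.00383% and 0.0115% of all genes). Without control 2 the count was 7 lower and 1 higher, where 1725 and 2414 of all genes tested were. With both control 1 and morphant 1 left out, a setting added after the data were seen, 25 of the 50 were negative (49.5% of all genes), the median was -0.0079, and 10 were lower and 1 was higher (6.81% and 9.67% of all genes).

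**Figure D1:**
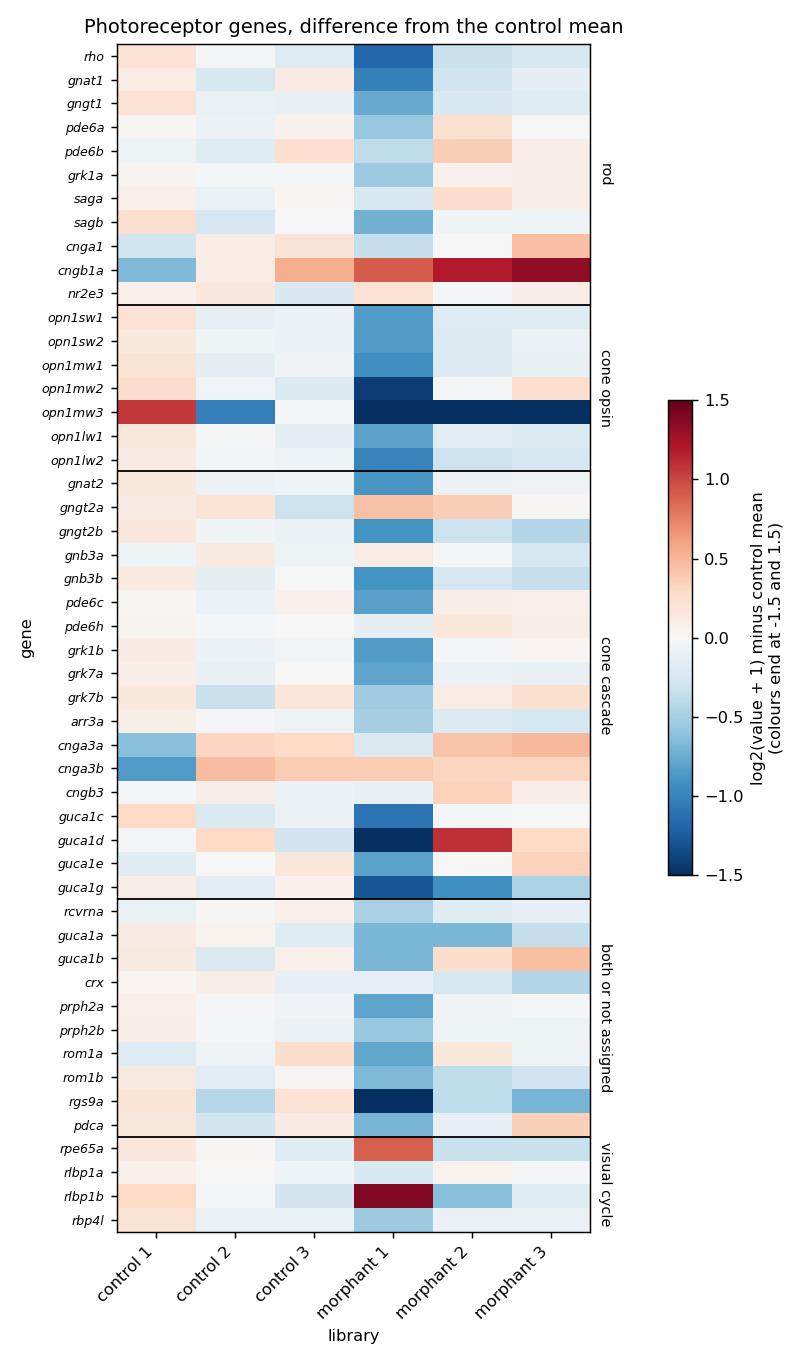
Each row is 1 of the 50 tested photoreceptor genes and each column 1 library. The colour gives log2(value + 1) minus the mean of the 3 controls, blue for lower and red for higher. The blue column of morphant 1 runs through most rows of rod, cone and shared genes, with rpe65a and rlbp1b of the visual cycle in red there. The genes cngb1a, gngt2a, nr2e3, gnb3a and cnga3b also lie above the control mean in morphant 1. Morphants 2 and 3 are close to the controls for most genes.

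The opsins, the light receptors themselves, were lower in morphant 1 than in any other library for every opsin gene tested but opn1mw3, which was equally low in morphant 2. The rod opsin gene rho (chromosome 8) was at 25792, 22072 and 19454 in controls and 9858, 17660 and 18879 in morphants, so the groups did not overlap, by a narrow margin (log2 difference -0.58 ± 0.24 SE, limma adjusted p = 0.292). The ultraviolet cone opsin gene opn1sw1 (chromosome 4) had 27710, 21866 and 22503 in controls and 13331, 20824 and 21131 in morphants. The blue cone opsin gene opn1sw2 (chromosome 11) had 7857, 6765 and 6622, and 3905, 6129 and 6663. In opn1sw1 the groups did not overlap and in opn1sw2 they did, through morphant 3 alone, and their log2 differences were -0.41 ± 0.19 and -0.38 ± 0.19 (SE; limma adjusted p = 0.332 and 0.358).

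The 2 red cone opsin genes lie on chromosome 11. At opn1lw1 the controls held 2318, 2037 and 1865 and the morphants 1188, 1832 and 1798. At opn1lw2 the controls held 18232, 16226 and 15842 and the morphants 8389, 13404 and 14068. For both genes every morphant lay below every control, and the log2 differences were -0.39 ± 0.17 and -0.52 ± 0.19 (SE; limma adjusted p = 0.312 and 0.26). Without morphant 1 opn1lw2 had a log2 difference of -0.29 ± 0.10, with an unadjusted limma p of 0.0261, and opn1lw1 of -0.19 ± 0.11.

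Of the 4 green cone opsin genes, which are neighbours in name and share chromosome 6, opn1mw1 was at 14812, 11684 and 12404 in controls and 6793, 11234 and 11943 in morphants. For opn1mw2 the values were 366, 297 and 262, and 114, 300 and 363. Morphant 1 was low at both, and morphants 2 and 3 were within or just outside the range of the controls. The log2 differences were -0.41 ± 0.21 and -0.40 ± 0.38 (SE; limma adjusted p = 0.364 and 0.638), and that of opn1mw2 turned to 0.11 without morphant 1. The gene opn1mw3 was low in all libraries, with 50, 11 and 23 in controls and 4, 4 and 7 in morphants. All 3 morphants lay below all 3 controls, and the log2 difference was -2.07 ± 0.53 (SE), with an unadjusted limma p of 0.0041 that did not pass adjustment (adjusted p = 0.197). Its highest control value was that of control 1, and without control 1 the log2 difference was -1.54. The gene opn1mw4 was listed at 0 in 5 libraries and at 1 in morphant 3, so it did not pass the filter on low values. Reads may be shared among such close copies, so the split among the green genes and between the red genes is uncertain.

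In morphant 1 the tested opsins stood at 34.4% (opn1mw2) to 72.7% (opn1mw3) of the mean of morphants 2 and 3, with a median of 61.1%. Both rod and cone opsins were low there: rho stood at 54.0%, opn1sw1 at 63.6%, opn1sw2 at 61.1%, opn1mw1 at 58.6% and opn1lw2 at 61.1%. In control 1 all 7 tested cone opsins were the highest of the 6 libraries, where control 1 was the highest for 26.8% of all genes tested. Control 1 was the highest library for 24 of the 50 photoreceptor genes. Besides the cone opsins these were 8 of 18 cone cascade, 3 of 11 rod, 4 of 10 shared or unassigned and 2 of 4 visual cycle genes. It was the lowest for 3 of the 50 photoreceptor genes (27.2% of all genes tested), and all 3, cngb1a, cnga3a and cnga3b, encode channel subunits.

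**Figure D2:**
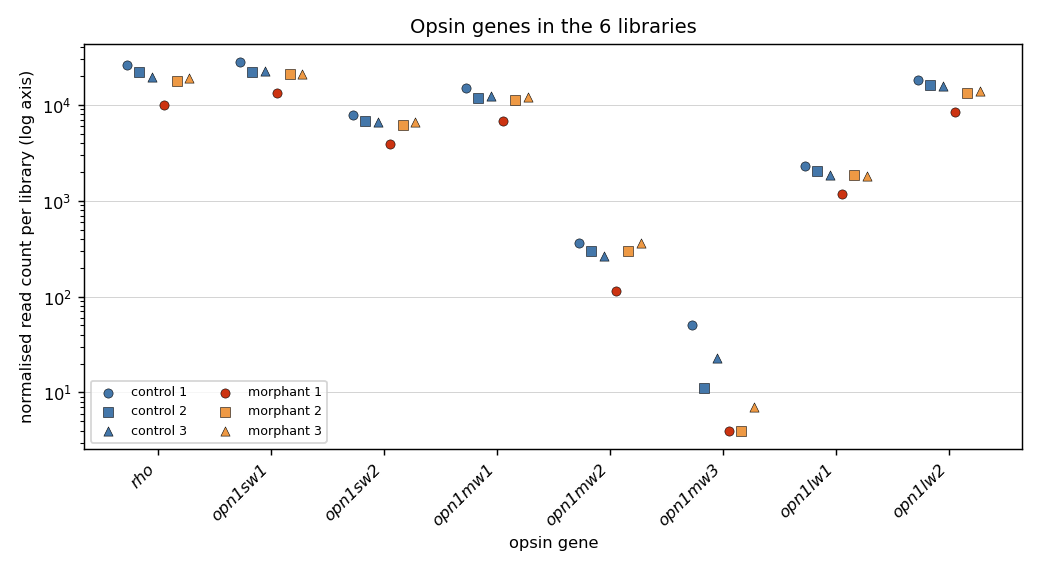
Normalised read count (log axis) of the 8 tested opsin genes in each library, with controls in blue, morphant 1 in red and morphants 2 and 3 in orange. Levels are not per length and are comparable within a gene only. Morphant 1 lies below the other 5 libraries at every gene but opn1mw3, where all 3 morphants lie at 4 to 7.

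Of the 11 rod genes found, morphant 1 was the lowest library for 9 (15.1% of all genes tested), and the other morphants were close to the controls for most. The rod transducin alpha gene gnat1 was at 1669, 1309 and 1676 in controls and 762, 1250 and 1395 in morphants (log2 difference -0.49 ± 0.21 SE, limma adjusted p = 0.317). The rod transducin gamma gene gngt1 was at 771, 619 and 618 in controls and 395, 566 and 588 in morphants, with no overlap (-0.39 ± 0.17 SE, limma adjusted p = 0.31). For gnat1 the groups overlapped through morphant 3, which lay above control 2. The arrestin gene sagb was at 1625, 1144 and 1365, and 831, 1311 and 1292. The rod opsin kinase gene grk1a was at 421, 404 and 401, and 279, 429 and 433. At both genes morphants 2 and 3 were inside or above the control range, and the log2 difference of grk1a turned from -0.13 to 0.08 without morphant 1.

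The rod channel beta subunit gene cngb1a (chromosome 18) was the 1 rod gene higher at an unadjusted limma p of 0.05 (8.99% of all genes tested). It was at 23, 40 and 54 in controls and 70, 85 and 94 in morphants, all 3 of which were above all 3 controls (39.0 ± 15.5 and 83.0 ± 12.1, SD, n = 3 per group). The log2 difference was 1.14 ± 0.31 (SE), with an unadjusted limma p of 0.0054 and an adjusted p of 0.198, over the alternatives 0.0621 to 0.573. Without control 1, the library in which it was lowest, the log2 difference was 0.81. The other 5 rod genes were the phosphodiesterase genes pde6a and pde6b, the arrestin gene saga, the channel gene cnga1 and nr2e3, which encodes a nuclear receptor of the rod lineage. Their log2 differences lay between -0.11 and 0.09 (adjusted p of 0.786 or more). The median rod gene was at -0.11 with all libraries and at 0.077 without morphant 1.

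Of the 18 cone cascade genes found, 4 were lower and 0 were higher at an unadjusted limma p of 0.05 (6.93% and 8.99% of all genes tested). Morphant 1 was the lowest library for 14 (15.1% of all genes tested). The cone transducin gamma gene gngt2b (chromosome 12) was at 5215, 4448 and 4380 in controls and 2504, 3736 and 3447 in morphants. Every morphant was below every control, and the log2 difference was -0.55 ± 0.15 (SE, limma adjusted p = 0.199) with all libraries and -0.38 ± 0.10 without morphant 1. The transducin beta gene gnb3b was at 6687, 5460 and 6016 in controls and 3245, 5076 and 4756 in morphants, again without overlap (-0.50 ± 0.17 SE, limma adjusted p = 0.239). The cone arrestin gene arr3a was at 2756, 2568 and 2476, and 1833, 2251 and 2158 (-0.33 ± 0.10 SE, limma adjusted p = 0.216). Its groups did not overlap, and morphant 1 stood at 83.2% of the mean of the other morphants, a smaller gap than at the opsins.

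The guanylate cyclase activator gene guca1g was at 72, 60 and 70 in controls and 27, 35 and 48 in morphants (-0.89 ± 0.24 SE, limma adjusted p = 0.199), lower in all 3 morphants. The cone opsin kinase gene grk7a was at 1536, 1327 and 1431, and 823, 1342 and 1327 (-0.33 ± 0.18 SE, limma adjusted p = 0.402), where morphants 2 and 3 were in or at the edge of the control range. The other 13 cone cascade genes, among them the cone transducin alpha gene gnat2 and the cone phosphodiesterase genes pde6c and pde6h, had log2 differences between -0.37 and 0.34 (adjusted p of 0.439 or more), 8 negative and 5 positive. In gnat2 the morphants were at 4172, 7153 and 7318 and the controls at 8512, 7166 and 7275. A separate entry listed as PDE6H, on chromosome 3, was at 70, 52 and 64 in controls and 18, 65 and 68 in morphants. Its symbol differs in case from those of the list, so it was not counted here, and it may be 1 of the unmatched genes. The cone channel genes cnga3a and cnga3b were lowest in control 1, at 126 and 28, where the other 5 libraries held 168 to 274 and 64 to 71. The median cone cascade gene was at -0.21 with all libraries and at 0.041 without morphant 1.

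**Figure D3:**
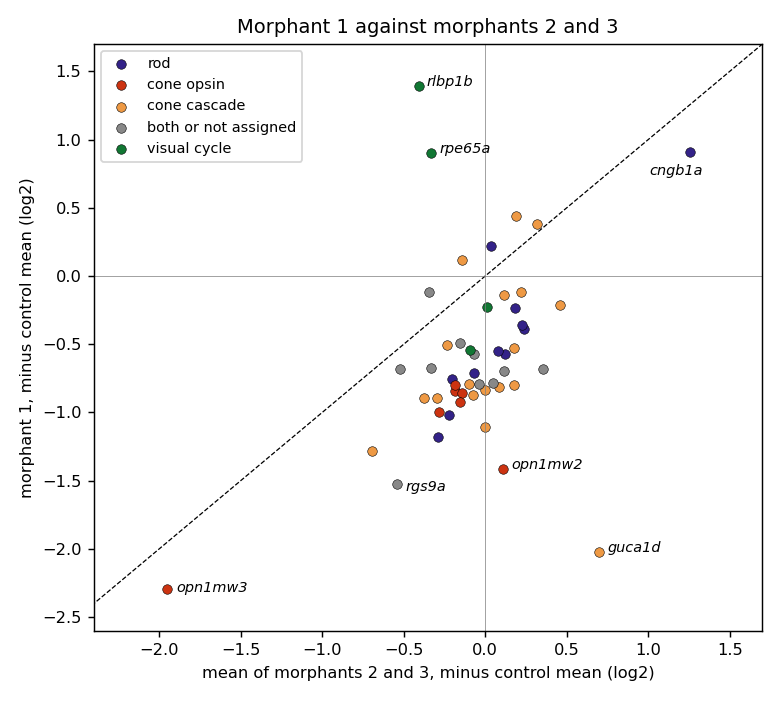
Each point is 1 of the 50 tested genes, placed by its mean log2 difference from the controls in morphants 2 and 3 (horizontal axis) and by its difference in morphant 1 (vertical axis), coloured by role. The dashed line marks equal values. Most points lie below the line and near 0 on the horizontal axis, and rlbp1b and rpe65a lie furthest above the line.

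Of the 10 genes used in both cell types or assigned to neither, rom1b, which encodes a tetraspanin of the outer segment discs, was at 603, 491 and 555 in controls and 343, 421 and 447 in morphants (-0.45 ± 0.13 SE, limma adjusted p = 0.206). The gene rgs9a, for the protein that turns transducin off, was at 587, 379 and 592, and 176, 390 and 313 (-0.87 ± 0.29 SE, limma adjusted p = 0.239). All morphants were below all controls at rom1b, and at rgs9a the groups overlapped through control 2. The recoverin gene rcvrna was at 754, 814 and 849, and 573, 708 and 738 (-0.27 ± 0.11 SE, limma adjusted p = 0.309), without overlap.

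The homeodomain factor gene crx, a regulator of photoreceptor genes, was at 1527, 1609 and 1376 in controls and 1383, 1261 and 1110 in morphants (-0.27 ± 0.10 SE, limma adjusted p = 0.283), overlapping through morphant 1 and control 3. Here morphant 1 was the highest of the morphants, at 117% of the mean of the others, unlike at the opsins. The low gene guca1a was at 20, 19 and 16, and 11, 11 and 14 (-0.57 ± 0.28 SE, limma adjusted p = 0.351), and did not overlap. The other 5 genes, prph2a, prph2b, rom1a, guca1b and pdca, had log2 differences between -0.29 and 0.01 (adjusted p of 0.43 or more). The disc rim genes prph2a and prph2b were at 992 and 1571 in morphant 1, where the other 5 libraries held 1650 to 1818 and 2203 to 2510.

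The 4 visual cycle genes divided. The gene rpe65a, for the retinoid isomerase of the pigment epithelium, was at 863, 787 and 685 in controls and 1445, 613 and 617 in morphants. For rlbp1b, which encodes a carrier of cis-retinoids, the values were 323, 260 and 216, and 690, 169 and 231. In both, morphant 1 was the highest of all libraries, at 235% and 345% of the mean of morphants 2 and 3, and morphant 2 was the lowest. The log2 differences were 0.08 ± 0.30 and 0.19 ± 0.45 (SE; limma adjusted p = 0.922 and 0.864), and without morphant 1 they were -0.33 ± 0.11 and -0.41 ± 0.21. The second carrier gene, rlbp1a, was at 369, 356 and 337, and 302, 367 and 347 (-0.07 ± 0.11 SE). The retinol binding protein gene rbp4l was at 1391, 1129 and 1125, and 829, 1140 and 1127 (-0.24 ± 0.14 SE, limma adjusted p = 0.434), with the dip in morphant 1 that the opsins had. For each of these 4 genes the difference between group means was smaller than the range of the morphants.

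Lists of other genes of the eye were read beside these. Of 51 further photoreceptor genes 39 were found, with 16 negative and 23 positive log2 differences and a median of 0.09. At an unadjusted limma p of 0.05, 1 was lower and 1 was higher (6.93% and 8.99% of all genes tested). The higher gene was abca4a, a retinoid transporter gene of the outer segment (144 ± 34.7 and 224 ± 33.1, SD, n = 3 per group), and tulp1a was at 102 ± 28.1 and 137 ± 16.0. Both were lowest in control 1, at 108 and 73. Morphant 1 was the lowest library for 13 of the 39 (15.1% of all genes tested). The median of the 39 was 0.12 below the control mean in morphant 1 and 0.22 and 0.19 above it in morphants 2 and 3. In control 1 the median was 0.12 below the control mean, and in controls 2 and 3 it was 0.058 and 0.054 above. Without control 1 the median log2 difference of the 39 was -0.00885. Of 17 photoreceptor transcription factor genes found of 19, 10 were negative and 7 positive (median -0.04). At an unadjusted limma p of 0.05, 2 were higher and 0 lower (8.99% and 6.93% of all genes tested). The 2 were rorb (30.0 ± 17.7 and 77.7 ± 2.52) and thrb, a thyroid hormone receptor gene needed for red cones (242 ± 74.9 and 364 ± 67.9), both lowest in control 1 at 11 and 156, and six6b followed (158 ± 21.5 and 184 ± 24.3). Morphant 1 was the lowest library for 1 of these 17 (15.1% of all genes tested), and their median gene was 0.072 above the control mean there.

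Genes of the retinal pigment epithelium and of retinoid handling were highest in morphant 1 more often than genes at large, given here as values with no test. Of 25 listed 21 were found, and morphant 1 was the highest library for 11 of them, against 13.9% of all genes tested. The median gene was 0.45 above the control mean in morphant 1 and 0.29 and 0.24 below it in morphants 2 and 3. The melanosome gene pmelb was at 157, 201 and 162 in controls and 548, 141 and 140 in morphants, and the pigment enzyme gene dct at 548, 520 and 469, and 1041, 411 and 401. For the pigment enzyme gene tyrp1b the values were 1404, 1270 and 1354, and 2729, 1038 and 1199. These 3 were named after their values were seen, and skin melanophores express them too. By p-value the first of the list were rgrb (295 ± 46.0 and 193 ± 27.7), rbp4 (6539 ± 1129 and 5160 ± 161) and tyr (97.7 ± 30.5 and 158 ± 73.1, SD, n = 3 per group). The list's summed value ranged from 13424 to 16148 in controls and from 11377 to 16506 in morphants, 13 of 21 genes were negative and the median was -0.09.

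**Figure D4:**
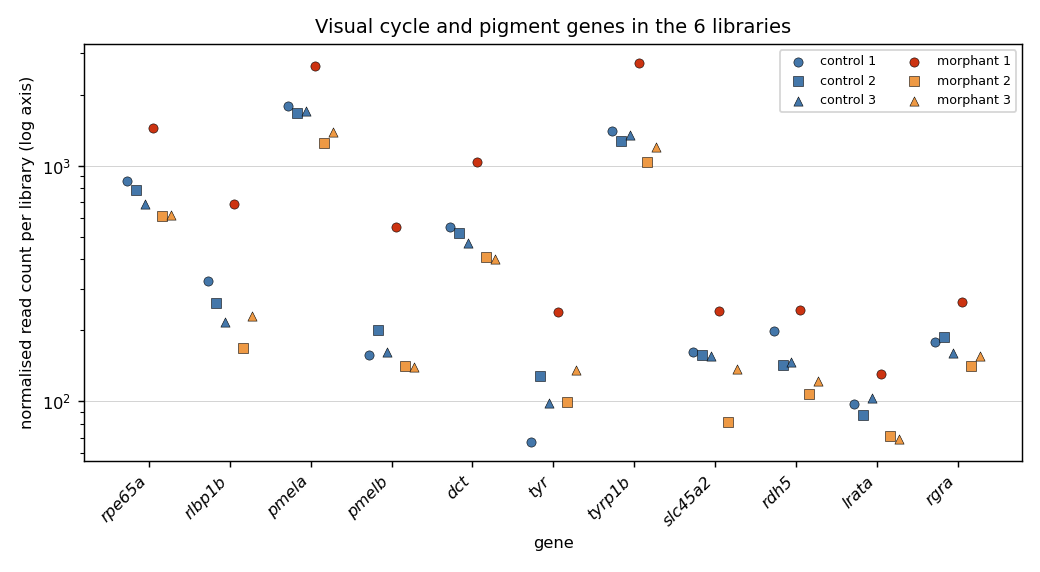
Normalised read count (log axis) of 11 visual cycle and pigment genes in each library, with controls in blue, morphant 1 in red and morphants 2 and 3 in orange. Morphant 1 is the highest library at each of these 11 genes, which were chosen after the values were seen.

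Gene lists of other retinal cell types showed smaller offsets in morphant 1 than the photoreceptor genes of the main list did. So did the further photoreceptor genes and the photoreceptor transcription factors given above. The median gene in morphant 1 was 0.15 below the control mean for bipolar cells (11 of 13 genes found), 0.16 below it for amacrine and horizontal cells (13 of 14), 0.0021 above it for retinal ganglion cells (11 of 12) and 0.097 below it for Muller glia (10 of 11, among them rlbp1b). In morphant 1 rlbp1b was the highest of all libraries, as rpe65a was, and whether it marks glia here was not tested. The glia median without rlbp1b was not computed. The group medians of these cell type lists were -0.05, -0.07, -0.09 and -0.13. At an unadjusted limma p of 0.05, 2, 2, 3 and 3 genes were lower (6.93% of all genes tested) and 1, 1, 1 and 0 higher (8.99%). Their leading genes were isl1 (825 ± 63.3 and 680.0 ± 53.8), nyx (128 ± 12.1 and 95.7 ± 10.6) and trpm1b (358 ± 31.9 and 425 ± 7) for bipolar cells. For amacrine and horizontal cells they were slc32a1 (1728 ± 65.8 and 1450 ± 18.9), onecut1 (64.7 ± 36.5 and 118 ± 9.17) and tfap2a (1777 ± 45.5 and 1572 ± 39.7). Ganglion cells had rbpms2b (586 ± 32.0 and 466 ± 37.3), thy1 (443 ± 49.3 and 336 ± 34.4) and rbpms2a (371 ± 49.0 and 490.3 ± 43.5), and glia had gfap (3397 ± 132 and 2625 ± 178), slc1a2b (8654 ± 168 and 7088 ± 236) and glula (3654 ± 349 and 2838 ± 179). The difference between these lists and the photoreceptor genes was not tested. The RNA was from whole embryos, so values of these lists need not come from the retina and do not show how other retinal cells fared.

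The median genes of the pineal and lens lists were below the control mean in morphant 1 as well. The pineal organ holds photoreceptors of its own that use part of the same cascade. Of 10 genes listed as pineal 7 were found, with a summed value of 1253 to 1308 in controls and 1057 to 1325 in morphants. The genes exorh, asmt and parapinopsina were not matched, and in whole embryos the 7 need not report the pineal organ alone. The median of the 7 was 0.47 below the control mean in morphant 1 and 0.14 and 0.13 below it in morphants 2 and 3. Morphant 1 was the lowest library for 3 of the 7 and the highest for 1 (15.1% and 13.9% of all genes tested). The leading genes were asmt2, listed as zgc:162232 (103 ± 12.5 and 72.3 ± 5.77), bsx (31.7 ± 4.73 and 20.3 ± 7.51) and tph2 (90.0 ± 16.8 and 68.7 ± 4.51). Lens genes, 24 tested of 25, were 0.47 below the control mean in morphant 1 and 0.17 and 0.22 below it in morphants 2 and 3. Of the 24, 19 were negative (median -0.28), and 12 were lower and 1 higher at an unadjusted limma p of 0.05 (6.93% and 8.99% of all genes tested). Morphant 1 was the lowest library for 16 (15.1% of all genes tested). The first were crybb1 (11926 ± 1569 and 8351 ± 664), crybb1l1 (7608 ± 454 and 6114 ± 527) and cryba1b (8454 ± 1169 and 6362 ± 657). The lens list summed to 59104 to 73050 in controls and 46860 to 56438 in morphants. Circadian clock genes, 27 found of 30, had 22 of 27 positive (median 0.11). At an unadjusted limma p of 0.05, 7 were higher and 0 lower (8.99% and 6.93% of all genes tested). They were led by per3 (62.0 ± 25.2 and 287 ± 112), rorcb (8.67 ± 3.51 and 33.7 ± 5.86) and arntl2 (65.0 ± 20.8 and 147 ± 10.6). In morphants 1, 2 and 3 the median clock gene was 0.07, 0.33 and 0.26 above the control mean. The median photoreceptor gene was 0.69, 0.060 and 0.072 below it, so morphant 1 was the lowest morphant in both. The part of the sources of lens, pigment, pineal and clock RNA in the photoreceptor values was not tested.

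**Figure D5:**
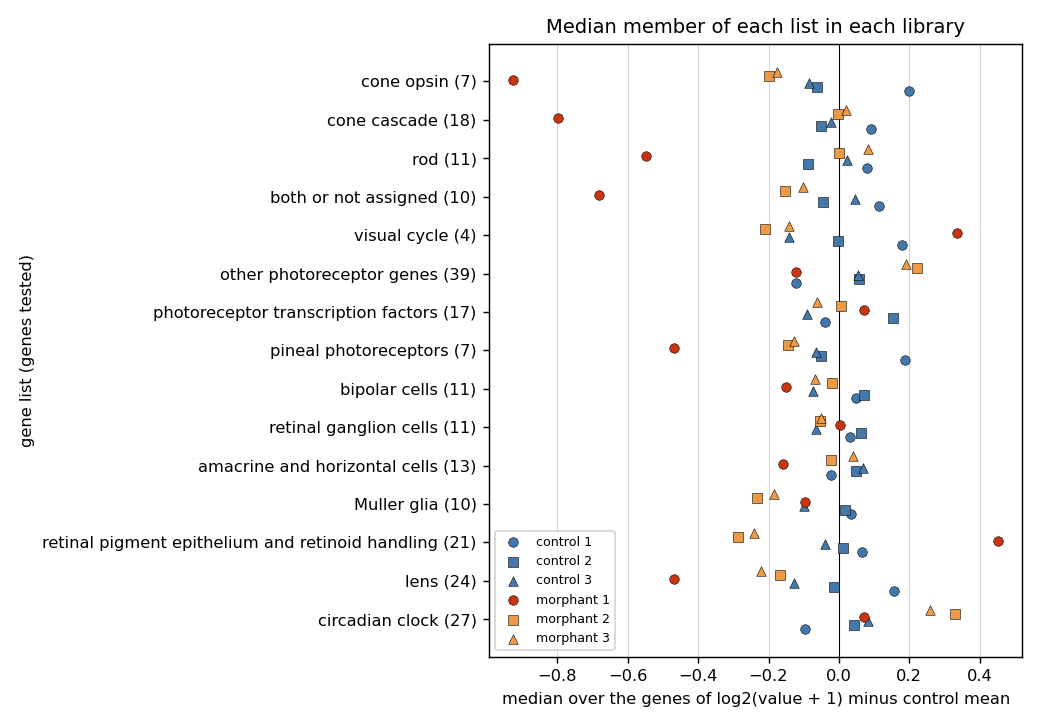
Each row is a gene list with its number of tested genes, and each symbol is the median over those genes of log2(value + 1) minus the control mean in 1 library. The red circle of morphant 1 lies at -0.93 for cone opsins, -0.80 for the cone cascade and -0.55 for rods, and at 0.34 for the visual cycle and 0.45 for the pigment epithelium list, while lists of other retinal neurons lie within 0.16 of 0. For the further photoreceptor genes it lies at -0.12, and for the photoreceptor transcription factors at 0.07.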

How the data were processed

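RNA-seq values of 6 whole-embryo libraries were analysed, grouped by their titles. The deposited values are treated as a score. That they are read counts per gene, divided by the authors by a library size factor and rounded, is inferred from the spacing of low values and the "SIZE FACTORS" line closing each file, and no source states it. Zv9 is the build named by the submitters' processing notes. Aligner, counter and strandedness were not given in the sources used here. No raw-read test was run, since rounding merges neighbouring read counts in libraries where 1 read is worth less than 1.

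A gene entered the test if 3 or more libraries held a value of 1 or above. The scale was log2(value + 1), and groups were compared with limma 3.58.1 (R 4.3.3), with a mean-variance trend and Benjamini-Hochberg adjustment at 0.05. Differences are morphant minus control on that scale, which understates changes of low genes. No further scaling was applied. The fit was tried on simulated data with the same spread setting for all genes and no outlying library, so a deviating pool was not covered. Named genes were all opsins, the 5 members of each other role group and the 3 genes of each other list with the lowest unadjusted p, slc2a12 and tissue markers. The gene with the lowest p of the further photoreceptor genes, lower in morphants, is not reported here. Members, lists, tests and the trend were chosen with earlier results of these data known. Non-member list genes were matched by the files' symbol or by the current symbol of their gene ID. Alternatives were other scalings, filters and pseudocounts, no trend, library weights, the replicate block and libraries left out.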

Additional observations from a re-analysis of the deposited data

How the results depend on the processing

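Under 16 alternatives 0 of the photoreceptor genes tested were called, with a lowest adjusted limma p of 0.0621. Of all genes tested, 329 were called with library weights and 0 to 30 in the other alternatives, so few calls were found anywhere. The count lower at an unadjusted limma p of 0.05 (13 in the report) was 5 with equal library totals, 7 without the trend, 6 to 16 with libraries left out and 10 with the replicate block. The background moved too: of all genes tested, 1808 were lower in the report's fit, 775 with equal totals, 1437 without the trend, 1119 to 1847 with libraries left out and 1730 with the block. The count higher (1) was 2 with equal totals and 2 with the replicate block, where 3780 and 2525 of all genes were higher, against 2346. Equal totals moved the rod median from -0.11 to 0.0029. With libraries left out, counting the setting without both control 1 and morphant 1, the cone opsin median ran from -0.56 to -0.081, and the sign turned in 7 named genes. The log2 difference ran from -0.24 to 0.098 for grk1a, -0.72 to 0.24 for opn1mw2, -0.32 to 0.0083 for rbp4l, -0.13 to 0.043 for rlbp1a, -0.41 to 0.60 for rlbp1b, -0.33 to 0.29 for rpe65a and -0.41 to 0.059 for sagb. Signs also turned for rlbp1a with equal totals (0.045) and with library weights for rlbp1b (-0.097) and rpe65a (-0.11). The cause was not tested. Whether the replicate numbers pair the libraries could not be settled. The correlation of same-numbered deviations was 0.104, -0.059 and 0.118, and differently numbered ones ran from -0.228 to 0.212. Deviations from a mean of 3 libraries are tied to each other, so these values cannot exclude a pairing. Depth limits opn1mw3, opn1mw4 and guca1d, whose values were a few reads in some libraries. The values of guca1a were low as well, at 11 to 20.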
